A study of Rattus norvegicus with 6 samples.

Results

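The genes described here build, fold, export and clear proteins of the endoplasmic reticulum (ER) and carry the unfolded protein response. They were followed in the livers of rats given the metal chelator nitrilotriacetic acid (NTA). A list of 38 genes was taken, and a gene was measured where the RefSeq accession of a probe on the array maps to its symbol. That held for 34 genes with 59 probes, out of 11251 named genes and 30353 features measured in all. Manf, Edem1, Derl2 and Txndc5 had no matched probe and were not analysed here. All 34 genes were well above background on all 6 arrays, so none entered through 1 group alone. For the 21 genes with more than 1 probe, the brightest probe was used.

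The NTA group was 3 male Sprague-Dawley (Crl:CD(SD)) rats given nitrilotriacetic acid trisodium monohydrate at 1000 mg/kg/day. The vehicle group was 3 such rats, whose labels name the vehicle as purified water in one field and as corn oil in another. The rats of both groups were bought at 5 weeks of age, and the labels give the sampling time as 28 days in one place and 9 weeks in another. Total RNA of the liver was measured on one-colour Agilent arrays after Cy3 labelling, with 1 array taken as 1 rat.

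The share of probes well above background was 62.4% to 64.5%, and the 75th percentile of the signal was 464 to 558. No slide held arrays of both groups, since the 3 NTA arrays were together on 1 slide, and the effects of slide and of NTA cannot be told apart. Vehicle replicate 3 was alone on its slide and its scan day, with a median local background of 40 against 54 to 61 on the other arrays. It stands apart in the results. The medians of the role groups, and each gene of the list whose sign changed without it, are also given without it. The hepatocyte markers Alb, Apoa1, Ttr, Tf, Serpina1, Hnf4a, Cyp2e1 and Fgb were well above background on all 6 arrays. Levels below are log2 of the processed signal over the array's 75th percentile, in the order of replicates 1, 2 and 3, and differences are NTA minus vehicle on that log2 scale.

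Secreted and membrane proteins enter the ER through the Sec61 channel and are folded there by the chaperone BiP (Hspa5), by lectin chaperones and by disulfide isomerases. Proteins that fail to fold are pulled back to the cytosol and degraded. When unfolded proteins pile up, the sensors IRE1 (Ern1), PERK (Eif2ak3) and ATF6 (Atf6) signal to the nucleus, and the factors ATF6 and XBP1 switch on chaperone and degradation genes. Hepatocytes secrete most plasma proteins and so depend heavily on this machinery.

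The letters through which ATF6 and XBP1 are known to act stand in front of many of these genes. The ER stress element (ERSE) was searched as CCAAT, any 9 bases and CCACG, and its variant ERSE-II as ATTGG, any 1 base and CCACG, on both strands, in RefSeq promoter windows of the assembly GRCr8 that run from 250 bases before to 50 bases after a gene's start. Of the 38 listed genes 30 have a window. ERSE was found in 8 of these 30, against 0.0657% of all 33469 windows, and ERSE-II in 3 of 30, against 0.0508% of all windows. The shares over all windows count windows, not genes. Of 94 further ER genes with a window, from lists described below, 1 held an ERSE and 0 an ERSE-II. The sequences shown are those of the master chaperones, of XBP1 itself and of the genes with the lowest differences between the groups. Each is written 5′ to 3′ on the strand that carries the element, with 10 bases on either side, and capitals mark its letters.
Hspa5, ERSE, chr3:38452963-38453001, gene on the + strand: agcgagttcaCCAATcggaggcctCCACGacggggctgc
Hsp90b1, upstream ERSE, chr7:23012441-23012479, gene on the − strand: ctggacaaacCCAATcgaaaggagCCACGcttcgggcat
Hsp90b1, downstream ERSE, chr7:23012337-23012375, gene on the − strand: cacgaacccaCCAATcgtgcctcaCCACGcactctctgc
Xbp1, ERSE, chr14:84604548-84604586, gene on the + strand: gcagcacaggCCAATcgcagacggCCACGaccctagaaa
Creld2, ERSE, chr7:121789229-121789267, gene on the + strand: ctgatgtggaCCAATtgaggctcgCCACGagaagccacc
Herpud1, ERSE-II, chr19:10614811-10614841, gene on the − strand: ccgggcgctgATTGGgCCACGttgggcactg
Hyou1, upstream ERSE-II, chr8:53602684-53602714, gene on the + strand: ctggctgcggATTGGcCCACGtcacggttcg
Hyou1, downstream ERSE-II, chr8:53602784-53602814, gene on the + strand: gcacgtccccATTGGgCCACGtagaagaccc

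In these sequences the element ends 24 bases before the start of Hspa5, 46 before that of Xbp1, 126 before that of Creld2 and 113 before that of Herpud1. Hsp90b1 has an element on each strand and Hyou1 has 2 ERSE-II. Canx, Dnajc3, Derl3 and Ero1b also hold an ERSE, and Dnajb11 holds an ERSE-II that reaches its start. A further motif that XBP1 binds, searched on both strands as TGACGTGG, was found in 1 of the 30 windows, that of Hyou1, where it overlaps the upstream ERSE-II. It was found in 0.595% of all windows and in 8 of the 94 further ER genes. A match is a description of the letters, not of binding.

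Across the list, no gene passed the test. In limma with Benjamini-Hochberg adjustment over all 30353 features, 0 of 34 genes had an adjusted p under 0.05, against 0.0297% of all features, and the adjusted p ran from 0.676 to 0.992. At an unadjusted p under 0.05 there were also 0 of 34, against 7.57% of all features. The median difference of the 34 genes was −0.10, against −0.03 over all features, and 28 of 34 lay below 0, against 56.1% of all features. The other 6 lay above 0, against 43.9% of all features. Over the 11251 named genes alone, the median was −0.006 and 5773 lay below 0. No gene of the list differed by over 1.5-fold, which 5.16% of all features did. Differences ran from −0.47 for Herpud1 to 0.12 for Edem2, and 29 of 34 were smaller than 0.2 either way. Of the 21 genes with several probes, 13 had all probes below 0 and 1 had all above 0. The other 7 had probes of both signs, namely Atf6, Calu, Derl1, Derl3, Ppp1r15a, Sdf2l1 and Sil1.

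The 3 against 3 design cannot give a two-sided exact permutation p under 0.1, so single genes were not tested that way. The 95% intervals from limma lay wholly within a doubling or halving (−1 to 1) for 31 of 34 genes, the exceptions being Herpud1, Derl3 and Xbp1. For 32 of 34 the upper bound was under 1.5-fold higher, Derl3 and Xbp1 being the exceptions, and for 25 of 34 the lower bound was within 1.5-fold lower. In bulk liver RNA, fewer cells of a type and less RNA per cell cannot be told apart. When all features were cut by brightness into 5 equal bins, 20 of the 34 genes fell in the brightest bin, where 67.6% of features lay below 0 with a median of −0.05.

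**Figure D1:**
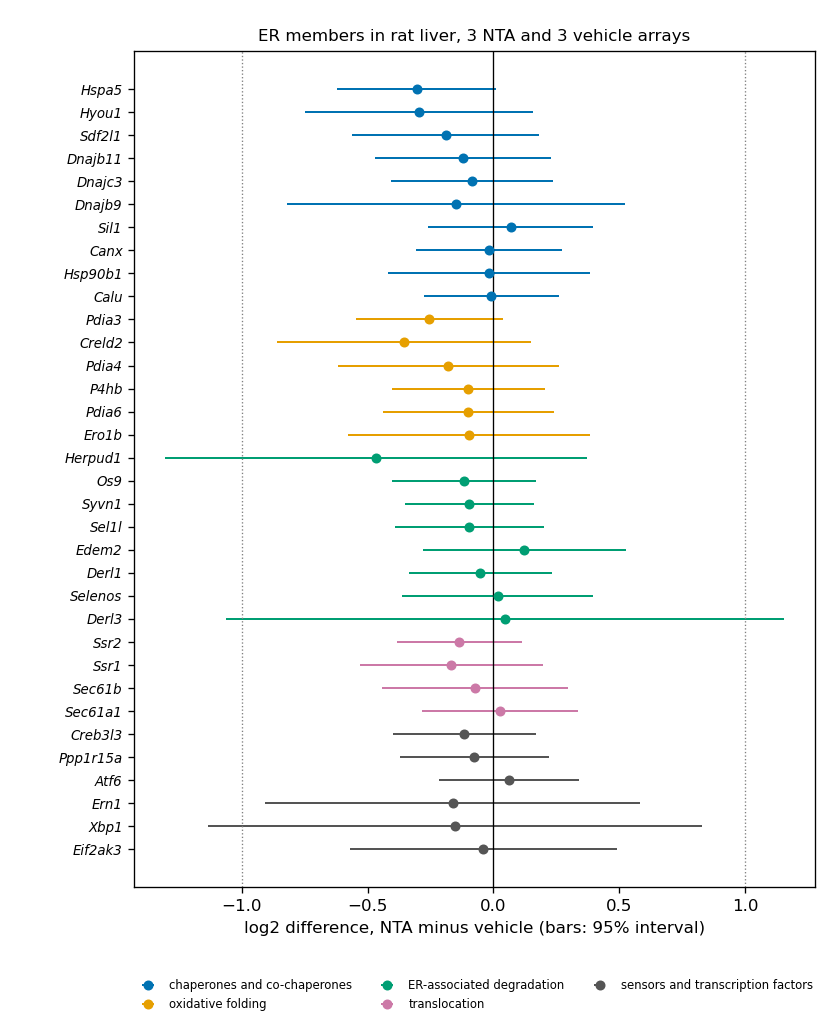
Log2 difference, NTA minus vehicle, for the 34 measured genes, grouped by role and ordered by p within a role; points are limma estimates and bars their 95% intervals (3 arrays per group). Most points lie left of 0 by less than 0.2, and no gene passed the adjusted threshold.

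The direction of many genes depended on single arrays. The sign changed in 19 of 34 genes with at least 1 array left out, and in 10 of 34 without vehicle replicate 3. Without that array, Dnajb9 and Ero1b were each at 0.11, Dnajc3 at 0.02, Derl1 and Canx each at 0.03, and Calu at 0.06. Xbp1, Ern1, Eif2ak3 and Sec61b also changed sign and are given below. Vehicle replicate 3 was the highest of the 6 arrays for 20 of 34 genes, against 25.2% of all features. Without it the median of the 34 genes was −0.02 and 18 of 34 lay below 0, against 53.9% of all features. NTA replicate 3 was the highest NTA array for 25 of 34 genes, against 29.6% of all features. NTA replicates 1 and 2 were the lowest of the 6 arrays for 29.4% and 38.2% of the 34 genes, against 13.7% and 18.4% of all features. Taking each gene's deviation from its own mean over the arrays, the median over the 34 genes was −0.10, −0.10 and 0.06 on the NTA arrays, against −0.03, −0.00 and 0.18 on the vehicle arrays. The groups overlap on this measure, because NTA replicate 3 lies above vehicle replicates 1 and 2.

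**Figure D2:**
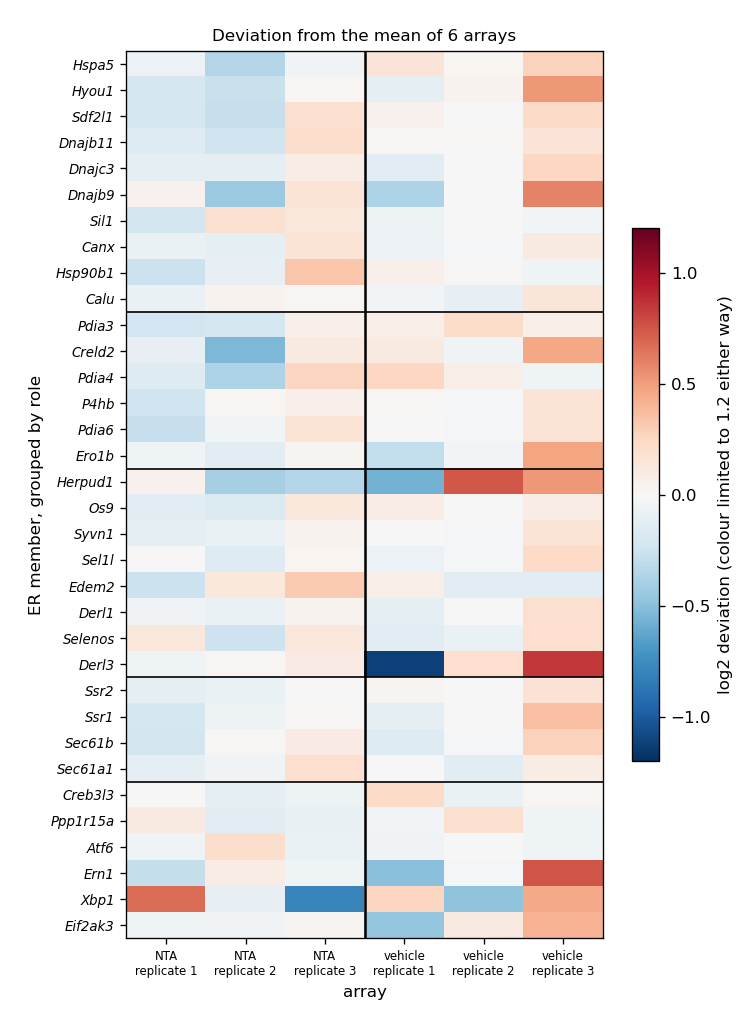
Each gene's log2 deviation from its mean over the 6 arrays, NTA arrays left and vehicle arrays right, with black lines between the role groups. Red prevails in the column of vehicle replicate 3 and blue in those of NTA replicates 1 and 2; the strongest colours belong to Derl3, Xbp1, Herpud1 and Ern1.

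Of 10 measured chaperones and co-chaperones 9 lay below 0, with a median difference of −0.10 that was −0.02 without vehicle replicate 3. BiP, the central chaperone of the ER and the classical readout of the unfolded protein response, had the smallest p of the list. Hspa5 was at 6.65, 6.37 and 6.67 in NTA livers, against 6.87, 6.74 and 6.99 in vehicle livers. All 3 NTA livers were below all 3 vehicle livers, an arrangement seen in 8.03% of all features and, in these 34 genes, for Hspa5 and Pdia3. The opposite arrangement, NTA above vehicle, was seen for 0 of 34 genes, against 5.57% of all features. The means were 6.56 ± 0.17 in NTA livers and 6.87 ± 0.12 in vehicle livers (SD, n = 3 each), a difference of −0.30 (SE 0.13, 95% interval −0.62 to 0.01; limma, adjusted p = 0.676), or 0.81 of the vehicle level. With 1 array left out, the difference of Hspa5 ran from −0.37 to −0.21, and with normexp background correction and quantile normalization together its adjusted p in limma was 0.455.

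Hyou1, a large chaperone that recharges BiP, was at 4.26, 4.19 and 4.49 in NTA livers, against 4.34, 4.50 and 4.98 in vehicle livers. Vehicle replicate 3 was the highest value, and NTA replicate 3 lay above vehicle replicate 1. The difference was −0.29 (SE 0.19; limma, adjusted p = 0.765), with −0.26 on its other probe, and without vehicle replicate 3 it was −0.11. Sdf2l1, a partner of the ER DnaJ proteins, was at 4.22, 4.15 and 4.61 in NTA livers, against 4.48, 4.42 and 4.65 in vehicle livers. NTA replicate 3 sat among the vehicle values. The brightest probe of Sdf2l1 gave −0.19, while its other probes gave 0.02 and 0.16, the widest gap between probes in the list.

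Hsp90b1 (GRP94), the ER member of the HSP90 family, was at 4.61, 4.77 and 5.20 in NTA livers, against 4.93, 4.88 and 4.82 in vehicle livers. The vehicle livers lay close together and the NTA livers lay on both sides of them. Its difference was −0.02 (SE 0.17), although the second probe gave −0.27. The ER DnaJ co-chaperones Dnajb11, Dnajb9 and Dnajc3 (P58IPK, also an inhibitor of PERK) were at −0.12, −0.15 and −0.09. The lectin chaperone Canx (calnexin) and the calcium-binding Calu (calumenin) were at −0.02 and −0.01, and Sil1, which exchanges the nucleotide of BiP, was at 0.07. For these 6 genes the NTA and vehicle values overlapped on the brightest probe. The next brightest probe gave −0.21 for Canx, −0.11 for Sil1 and 0.08 for Calu.

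**Figure D3:**
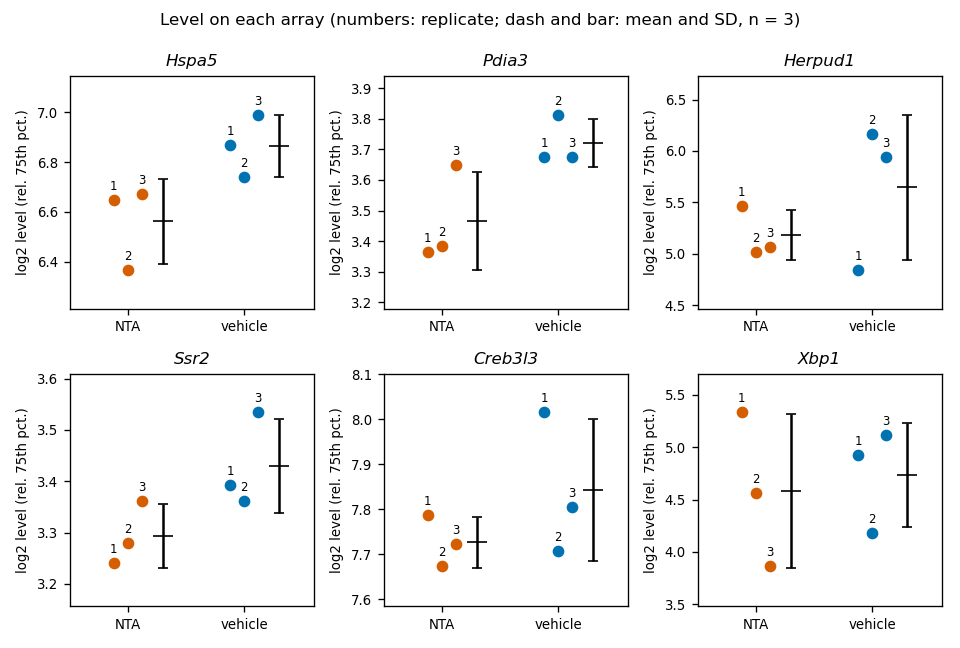
Level on each array (log2 of signal over the array's 75th percentile) for the gene with the smallest p in each role group and for Xbp1, NTA left and vehicle right, with replicate numbers, the mean and the SD. The groups are apart for Hspa5 and Pdia3 and overlap for Herpud1, Ssr2, Creb3l3 and Xbp1; each panel has its own axis, which does not start at 0.

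All 6 measured genes of oxidative folding lay below 0, with a median difference of −0.14. It was −0.13 without vehicle replicate 3 and −0.28 without NTA replicate 3. Pdia3 (ERp57), the disulfide isomerase that works with calnexin on glycoproteins, was at 3.36, 3.38 and 3.65 in NTA livers, against 3.68, 3.81 and 3.67 in vehicle livers. NTA replicate 3 lay just below the lowest vehicle liver. The means were 3.47 ± 0.16 in NTA livers and 3.72 ± 0.08 in vehicle livers (SD, n = 3 each), a difference of −0.26 (SE 0.12; limma, adjusted p = 0.691), or −0.28 without vehicle replicate 3.

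Creld2, an ER stress-inducible protein with isomerase activity, was at 1.94, 1.51 and 2.15 in NTA livers, against 2.16, 2.00 and 2.51 in vehicle livers. NTA replicate 2 was the lowest array, and the groups overlapped. The difference was −0.36 (SE 0.21; limma, adjusted p = 0.746), or 0.78 of the vehicle level, and −0.18 without NTA replicate 2. Pdia4 (ERp72) was at 2.22, 2.00 and 2.63 in NTA livers, against 2.62, 2.44 and 2.33 in vehicle livers. NTA replicate 3 was the highest of the 6, and the difference was −0.18 (SE 0.18). It was −0.04 without NTA replicate 2 and −0.35 without NTA replicate 3. P4hb, the founding disulfide isomerase and a subunit of prolyl 4-hydroxylase, Pdia6 (P5) and the oxidase Ero1b were each at −0.10.

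Of 8 measured genes of ER-associated degradation 5 lay below 0, with a median of −0.07 that was 0.01 without vehicle replicate 3. Herpud1, a membrane adaptor of the degradation complex that is strongly inducible by ER stress, was at 5.46, 5.02 and 5.06 in NTA livers, against 4.84, 6.16 and 5.94 in vehicle livers. Vehicle replicate 1 was the lowest of all 6, while the other vehicle livers were the highest. The means were 5.18 ± 0.24 in NTA livers and 5.65 ± 0.71 in vehicle livers (SD, n = 3 each), a difference of −0.47 (SE 0.35; limma, adjusted p = 0.803), with −0.39 on its other probe. It was −0.87 without vehicle replicate 1 (limma, adjusted p = 0.464) and −0.21 without vehicle replicate 2.

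The lectin Os9, which hands misfolded glycoproteins to the complex, was at 0.53, 0.50 and 0.80 in NTA livers, against 0.76, 0.67 and 0.76 in vehicle livers. Its difference was −0.12 (SE 0.12), and NTA replicate 3 was the highest of the 6. Syvn1 (HRD1), the ubiquitin ligase of the complex, was at 3.43, 3.46 and 3.58 in NTA livers, against 3.54, 3.51 and 3.70 in vehicle livers, a difference of −0.10 (SE 0.11). Its partner Sel1l was also at −0.10. The channel protein Derl1 was at −0.05, Selenos (VIMP), which recruits the p97 ATPase, at 0.02, and Edem2, which acts on mannose residues of glycoproteins, at 0.12.

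Derl3, an ER stress-inducible relative of Derl1, was singled out after its values were seen. It was at 0.73, 0.81 and 0.88 in NTA livers, against −0.34, 0.99 and 1.63 in vehicle livers. The SD was 0.08 in NTA livers and 1.00 in vehicle livers, and the NTA values lay between the vehicle ones. Its difference was 0.05 (SE 0.46), which became −0.50 when vehicle replicate 1 was left out and 0.48 when vehicle replicate 3 was.

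Of the 4 translocation genes 3 lay below 0, with a median of −0.10 that was 0.01 without vehicle replicate 3. Ssr2, a subunit of the translocon-associated protein complex, was at 3.24, 3.28 and 3.36 in NTA livers, against 3.39, 3.36 and 3.53 in vehicle livers. NTA replicate 3 lay just above vehicle replicate 2, and the difference was −0.14 (SE 0.10; limma, adjusted p = 0.804). Ssr1, of the same complex, was at 3.48, 3.63 and 3.71 in NTA livers, against 3.58, 3.69 and 4.05 in vehicle livers. Its difference was −0.17 (SE 0.15), with −0.01 on its other probe and −0.03 without vehicle replicate 3. The channel subunit Sec61b was at 5.02, 5.26 and 5.34 in NTA livers, against 5.08, 5.23 and 5.52 in vehicle livers, a difference of −0.07 (SE 0.15) that was 0.05 without vehicle replicate 3, and the pore subunit Sec61a1 was at 0.03.

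The sensors and transcription factors had a median of −0.10, with 5 of 6 below 0, and of 0.04 without vehicle replicate 3. Ern1 (IRE1), the kinase and RNase that splices Xbp1 mRNA, was at −4.61, −4.24 and −4.38 in NTA livers, against −4.83, −4.35 and −3.58 in vehicle livers. Its signal was near the lower end of what is measured, where the lowest probe well above background lay between −5.45 and −5.17. The vehicle values enclosed the NTA ones, and the difference was −0.16 (SE 0.31), or 0.17 without vehicle replicate 3.

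Eif2ak3 (PERK), the kinase that slows translation, was at −0.35, −0.35 and −0.27 in NTA livers, against −0.76, −0.20 and 0.11 in vehicle livers. Here too the vehicle livers spread on both sides of the NTA livers, with an SD of 0.44 against 0.04 in NTA livers, and the difference was −0.04 (SE 0.22). It was −0.28 without vehicle replicate 1, 0.16 without vehicle replicate 3 and −0.29 on its other probe. Atf6 was at 2.11, 2.36 and 2.08 in NTA livers, against 2.11, 2.15 and 2.10 in vehicle livers. The groups overlapped and the difference was 0.06 (SE 0.12), while its other probes gave −0.02 and −0.16.

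Xbp1 was at 5.33, 4.56 and 3.86 in NTA livers, against 4.92, 4.18 and 5.11 in vehicle livers. The highest and the lowest value both came from NTA livers, and the difference was −0.15 (SE 0.41; limma, adjusted p = 0.953). It was −0.53 without NTA replicate 1, 0.21 without NTA replicate 3 and 0.04 without vehicle replicate 3. Its probe is 1 expression probe, and spliced and unspliced Xbp1 were not told apart here. Creb3l3 (CREBH), an ER-bound transcription factor found mainly in liver and intestine, was at 7.79, 7.67 and 7.72 in NTA livers, against 8.02, 7.71 and 7.80 in vehicle livers. Vehicle replicate 1 was the highest value, and the difference was −0.12 (SE 0.12), or 0.09 with normexp correction and quantile normalization together. Ppp1r15a (GADD34), which restores translation after PERK has acted, was at 1.17, 0.93 and 0.98 in NTA livers, against 1.03, 1.25 and 1.01 in vehicle livers, a difference of −0.08 (SE 0.12).

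The genes were then described by their promoter letters. The 11 measured genes with an ERSE or ERSE-II had a median difference of −0.12, between −0.47 and 0.05, with 10 of 11 below 0. The 16 measured genes whose windows held neither had a median of −0.10, between −0.19 and 0.12, with 13 of 16 below 0. These counts turn on vehicle replicate 3. Without it, Canx, Dnajc3, Xbp1 and Ero1b, which hold an element, moved above 0. So did Dnajb9, Eif2ak3, Sec61b and Calu, which hold neither. With all arrays, Herpud1, Creld2, Hspa5 and Hyou1 were the lowest 4 of the genes with an element, while Hsp90b1, with its 2 elements, was at −0.02. These medians are a description, since the genes share the same 6 arrays.

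Of 112 further ER genes 99 were measured, 0 passed in limma with Benjamini-Hochberg adjustment, and 70 lay below 0, with a median of −0.07 that was −0.01 without vehicle replicate 3. At an unadjusted p under 0.05 there were 2 higher and 2 lower, against 3.66% and 3.91% of all features. Kdelr3, of ER export and retrieval, was at −0.16 and is counted in the 99 and in the 70 below 0. It passed the filter through the vehicle arrays alone, being well above background on 3 vehicle and 2 NTA arrays. With only genes well above background on all 6 arrays, the median of these further ER genes was also −0.07. Among folding genes (median −0.01 over 25), Pdia5, a disulfide isomerase, was at 2.85, 1.11 and 2.84 in NTA livers, against 3.42, 3.71 and 3.85 in vehicle livers. All NTA values lay below the vehicle values, with NTA replicate 2 far below the rest. The difference was −1.40 (SE 0.47; limma, adjusted p = 0.581), and −0.82 without NTA replicate 2. Txndc12 (ERp18), a small thioredoxin-like protein, was at −0.31 (SE 0.11).

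Among signalling genes (median −0.03 over 14), Trib3, a pseudokinase induced by ATF4 and CHOP, was at 2.41, 0.73 and 1.55 in NTA livers, against 0.32, −0.64 and 0.30 in vehicle livers. All NTA values were higher, and the difference was 1.57 (SE 0.46; limma, adjusted p = 0.541). In the same list Atf4 was at 0.11 (SE 0.13) and Ddit3 (CHOP) at −0.11 (SE 0.23). Wfs1, an ER membrane protein whose loss causes Wolfram syndrome, was at 0.40 (SE 0.15). In ER export and retrieval (median −0.15 over 19), the cargo receptor Tmed2 and the COPII GTPase Sar1b were at −0.23 and −0.22. In translocation and N-glycosylation (median −0.06 over 26), the channel subunit Sec61g and the oligosaccharyltransferase subunit Ddost were each at −0.16. In degradation (median −0.09 over 15), the p97 cofactors Nploc4 and Faf2 were at −0.20 and −0.18, and second probes of Nploc4 and Faf2 gave 0.24 and 0.01.

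**Figure D4:**
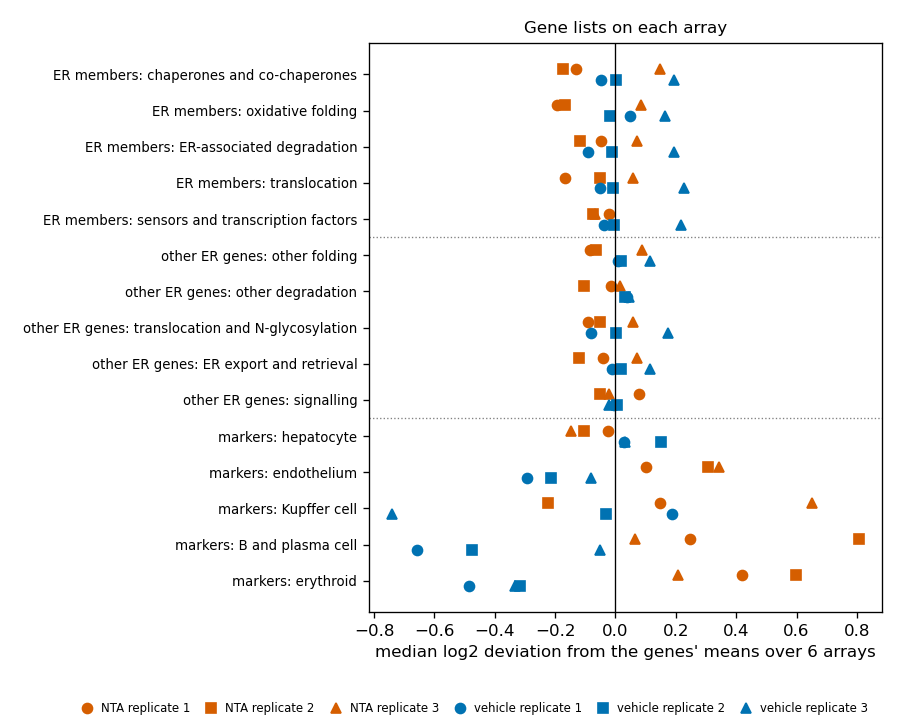
For each gene list, the median log2 deviation of its genes from their own means over the 6 arrays, with NTA arrays in orange above vehicle arrays in blue and a marker shape per replicate. Vehicle replicate 3 is rightmost in the 5 role groups and leftmost for Kupffer cell markers, and the groups lie apart for hepatocyte and endothelial markers. The B and plasma cell and erythroid lists here include Mzb1, Tnfrsf17 and Epb42. These passed the filter through the NTA arrays alone, so no separation is read from those 2 lists.

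Markers of other cell types were followed beside these values, and none passed in limma. Of 8 Kupffer cell markers 8 lay above 0, with Marco at 1.27 (SE 0.48) and Cd163 at 0.48 (SE 0.23), and their summed linear level was 96.1 to 192 in NTA livers, against 59.3 to 141 in vehicle livers, with the lowest value in vehicle replicate 3. Without that array 7 of 8 lay above 0 and their median was 0.07 in place of 0.38, with Marco at 0.81 and Cd163 at 0.32. All 3 B and plasma cell markers that were well above background on all 6 arrays lay above 0, with Cd79b at 0.74 and Pou2af1 at 0.75, although a second probe of Pou2af1 gave −0.29. Their sum was 0.780 to 1.34 in NTA livers, against 0.504 to 0.697 in vehicle livers. Plasma cells are rich in ER, and their ER protein Mzb1 was well above background on 3 NTA arrays and 1 vehicle array. The highest value of Mzb1, −3.22, was that of vehicle replicate 3, and its groups overlapped. Tnfrsf17 was well above background on 3 NTA arrays and 2 vehicle arrays. Neither is counted, since each passed the filter through the NTA arrays alone. Endothelial markers (5 of 5 above 0, Tie1 at 0.63 and Lyve1 at 0.54) summed to 59.2 to 63.8 in NTA livers, against 46.8 to 56.7 in vehicle livers. Such sums weigh the brightest markers most, Kdr for endothelium and Clec4f for Kupffer cells. Kdr overlapped between the groups, at 5.57 to 5.69 in NTA livers and 5.30 to 5.58 in vehicle livers. For 4 of the 5 endothelial markers all NTA values were higher, against 5.57% of all features, although a second probe of Pecam1 gave a difference of 0.06. The 4 erythroid markers well above background on all 6 arrays lay above 0 (Rhd at 1.00 and Alas2 at 1.17) and summed to 4.71 to 6.69 in NTA livers, against 2.88 to 3.11 in vehicle livers. Epb42, not counted among them, was well above background on 3 NTA arrays and 1 vehicle array.

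Hepatocyte markers ran the other way. Of 8 of them 7 lay below 0, with a median of −0.15, and the sum was 5179 to 5596 in NTA livers, against 5638 to 6191 in vehicle livers. Apoa1 was at −0.35 and Alb at −0.21 (0.04 with normexp correction and quantile normalization together). With those together Ttr, Fgb and Cyp2e1 were also above 0, at 0.01, 0.01 and 0.03. Tf, Serpina1, Hnf4a and Apoa1 stayed below 0, at −0.04, −0.12, −0.16 and −0.27, so the direction of this list depended on the normalization. For stellate cells 3 of 8 and for biliary cells 4 of 5 markers lay above 0; Lrat was at 0.41 and Acta2 at −0.17, Krt7 at −0.25 and Epcam at 0.26. Of 8 pancreatic acinar markers 3 were measured, with Ctrb1 at −0.20 and Cela2a, which was well above background on 3 NTA and 2 vehicle arrays, at 0.53. The part of these cell types in the small differences of the ER genes was not tested.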

How the data were processed

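Per the file headers, the scanner files come from Agilent Feature Extraction 10.7.1.1 and the build is rn4; the submitters' processing notes give version 10.7. The deposited processed signal is a background-subtracted linear intensity, per the file headers. The well-above-background and outlier flags are other values of the same files, per the file headers. The authors' deposited series table holds a ratio, which equals the signal over the array's 75th percentile for 100% of probes, within 0.0001 plus 0.2%.

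Of 61657 non-control probes, 27460 were named through RefSeq accessions (GRCr8). Values were log2 intensity minus log2 of the 75th percentile. Spots flagged as non-uniform were set to missing, and none belonged to the 34 genes. A probe was kept if well above background on all 3 arrays of a group, and the brightest probe stood for a gene. The groups were compared in limma 3.58.1 (R 4.3.3), two-sided, with Benjamini-Hochberg adjustment. The labels do not say how the rats were housed or sampled together, and p-values measure the spread between these 6 arrays.

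The members and lists were chosen with earlier results of these data known. All members are named. Values per array are given for the 3 genes with the smallest p in each role group, for Hspa5, Hsp90b1, Xbp1, Atf6, Ern1, Eif2ak3 and Creb3l3 whatever their values, and for Derl3. Of each other list the 2 genes with the smallest p are named, with markers not well above background on every array. All hepatocyte markers are named, and Atf4 and Ddit3 are named beside Trib3. Alternatives were other scalings, filters, probe rules and blocks, and each array left out. The scanner files hold no mean signal, so normexp used the median signal.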

Additional observations from a re-analysis of the deposited data

How the results depend on the processing

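Under all 16 alternatives 0 of the 34 genes and 0 of the 99 other ER genes passed in limma, and the adjusted p of the 34 genes was never under 0.455. The median difference of the 34 genes stayed below 0 throughout, between −0.14 without NTA replicate 3 and −0.02 without vehicle replicate 3. In every setting 12 of 34 genes kept their sign. Normexp and quantile normalization together gave 21 of 34 genes below 0, against 52.0% of all features. Quantile normalization alone gave 25 of 34, against 52.2% of all features. Scan day as a block, which leaves vehicle replicate 3 out of the difference, gave 18 genes below 0 and a median of 0.0444 for the sensors and transcription factors; leaving out 1 array gave 18 to 30 genes below 0 and medians of −0.103 to 0.0444 for that group and −0.277 to −0.119 for oxidative folding. At an unadjusted p under 0.05 there were 0 genes, but 3 with normexp and quantile normalization (Hspa5, Pdia3 and Syvn1), 2 with trend and robust, and 0 to 1 with 1 array left out. Over all features 9 were called, and 1 to 8 with 1 array left out. The cause of these changes was not tested. With the replicate number as a block 0 features were called and 2 of the 34 genes had an unadjusted p under 0.05, Creld2 and Hspa5. Deviations of same-numbered arrays correlated at r = 0.17, −0.01 and −0.07, and those of differently numbered arrays at −0.15 to 0.15. With 3 arrays per group, these few correlations cannot decide whether same-numbered rats were paired. Marker lists over fully measured markers, with each array left out, were chosen after seeing the data. The number of arrays limits the precision.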
